A study of Mus musculus with 6 samples.

Results

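Mitochondrial ribosomal protein genes were followed in mouse leukemia cells 24 h after a single oral dose of DS-5272, a compound that keeps MDM2 from binding p53. The rule for the genes uses names alone and takes entries whose symbol begins with Mrpl or Mrps and a number. Of 26082 different names in the expression table, 73 matched, and 72 of these, with a mean of 1 FPKM or more, were tested. FPKM is the number of fragments of a gene divided by its transcript length and by the mapped fragments of the library. All 6 mice carried leukemia of C57BL/6J cells transduced with MLL-AF9, a fusion oncogene of acute myeloid leukemia. The 3 mice of the vehicle group received Vehicle Control, and the 3 mice of the other group received DS-5272 at 80 mg/kg. By the study's methods, c-Kit+ marrow progenitors were transduced with a retrovirus, and the leukemia was passed through several rounds of transplantation before it was injected into non-irradiated recipients. The samples therefore compare hosts of serially transplanted leukemia cells, and sorted cells from the bone marrow were measured by RNA-Seq. Neither the ages of the mice nor pooling of animals is given in the sources used here.

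The mitochondrial ribosome makes the few proteins that mitochondrial DNA encodes, all of them subunits of the oxidative phosphorylation complexes. Its RNAs come from mitochondrial DNA, whereas all of its proteins are encoded in the nucleus, made in the cytosol and imported. Many descend from bacterial ribosomal proteins and others were added during the evolution of mitochondria. The large subunit, whose genes are named Mrpl, forms peptide bonds, and the small subunit, whose genes are named Mrps, reads the mRNA. Acute myeloid leukemia cells are known to depend on mitochondrial translation.

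The sum of FPKM over all genes ranged from 445316 to 501241 in the vehicle samples and from 499229 to 661184 in the DS-5272 samples. The estimated depth was 34200000 to 42500000 fragments in the vehicle samples and 22500000 to 31800000 in the DS-5272 samples. The fewest estimated fragments behind any tested value of a mitochondrial ribosomal protein gene were 140, for Mrps22, which gives a counting error of 8.45%. In bulk samples such as these, fewer cells of a type and less RNA per cell cannot be told apart.

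Most mitochondrial ribosomal protein genes were lower in the cells of the treated mice. At an adjusted p under 0.05 (limma on log2(FPKM + 1), two-sided, Benjamini-Hochberg over 11130 genes), 46 of the 72 were lower with DS-5272 and 2 were higher, while 24 were not past the threshold. Over all 11130 genes tested, 22% were lower and 24.2% were higher. The median log2 fold change was −0.43 over the 72 genes and 0.04 over all genes tested, and 66 of the 72 had a negative value. The median ratio of the group means was 0.730, a median difference of 27.0%. Among the 46 genes that fell, the ratio of means ran from 0.436 to 0.790, and 5 genes were under 0.5. In 57 genes every treated mouse was below every vehicle mouse and in 3 every treated mouse was above, where 29.7% and 32.1% of all genes tested were without overlap in these directions. Without vehicle replicate 1, 2 or 3 the number of lower genes was 29, 23 and 26, where 14.95%, 12.48% and 13.41% of all genes were lower. Without DS-5272 replicate 1, 2 or 3 it was 42, 45 and 42, where 21.85%, 20.23% and 19.72% of all genes were lower.

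**Figure D1:**
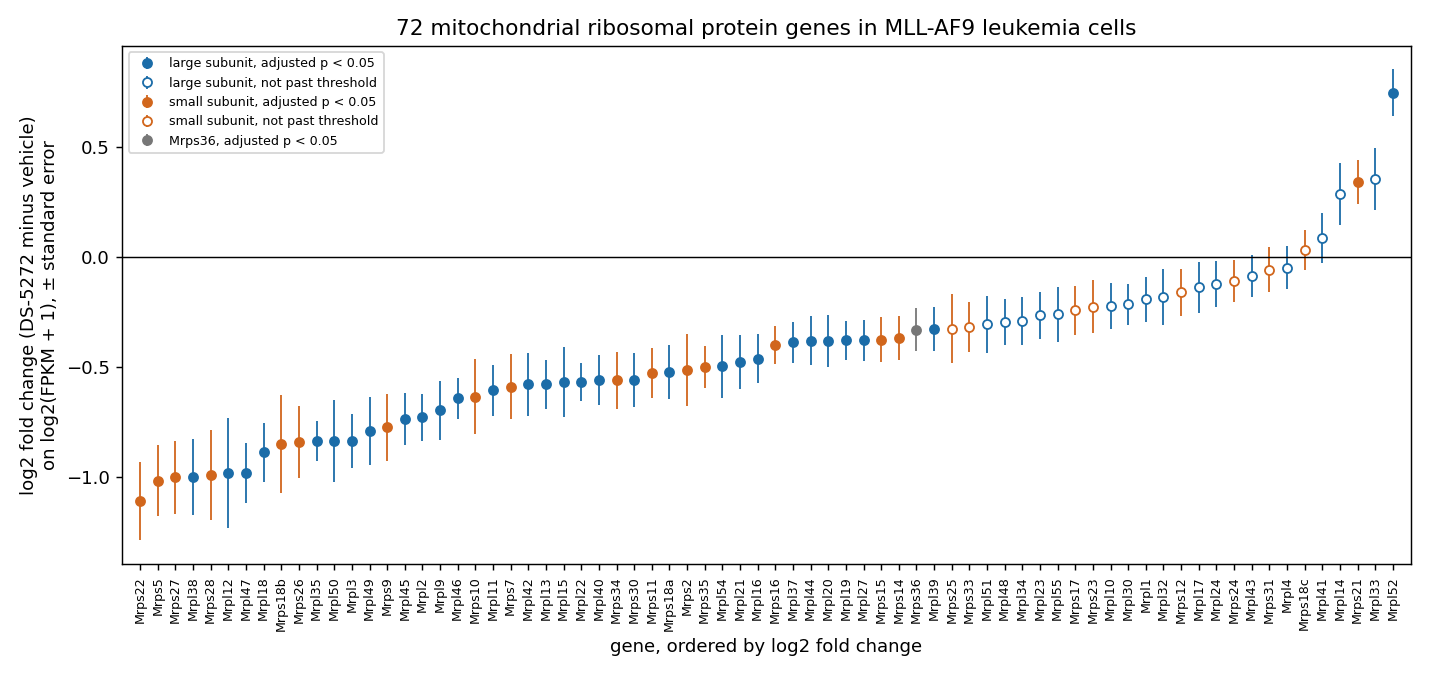
The log2 fold change between DS-5272 and vehicle (y axis, on log2(FPKM + 1)) is plotted for each of the 72 genes (x axis, in the order of their change), with bars for the standard error of the limma fit, n = 3 mice per group. Filled points are past an adjusted p of 0.05, and 66 of the points lie below 0.

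The decrease was seen in each treated mouse. Added over the 73 genes that matched, the untested Mrpl36 included, FPKM came to 2835, 2954 and 2902 for the vehicle mice 1, 2 and 3. The DS-5272 mice 1, 2 and 3 had 2174, 2452 and 2189. As a share of the FPKM of all genes these were 0.637%, 0.600% and 0.579% with vehicle and 0.435%, 0.423% and 0.331% with DS-5272. The groups did not overlap on either scale, and the vehicle mice were close together. DS-5272 replicate 1 was below every vehicle mouse in 65 of the 72 genes, replicate 2 in 61 and replicate 3 in 62. Among the treated mice, replicate 2 had the highest value in 48 of the 72 genes and replicate 3 the lowest in 37. The coefficient of variation of a gene had a median of 5.18% among the vehicle mice and 11.7% among the treated mice.

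**Figure D2:**
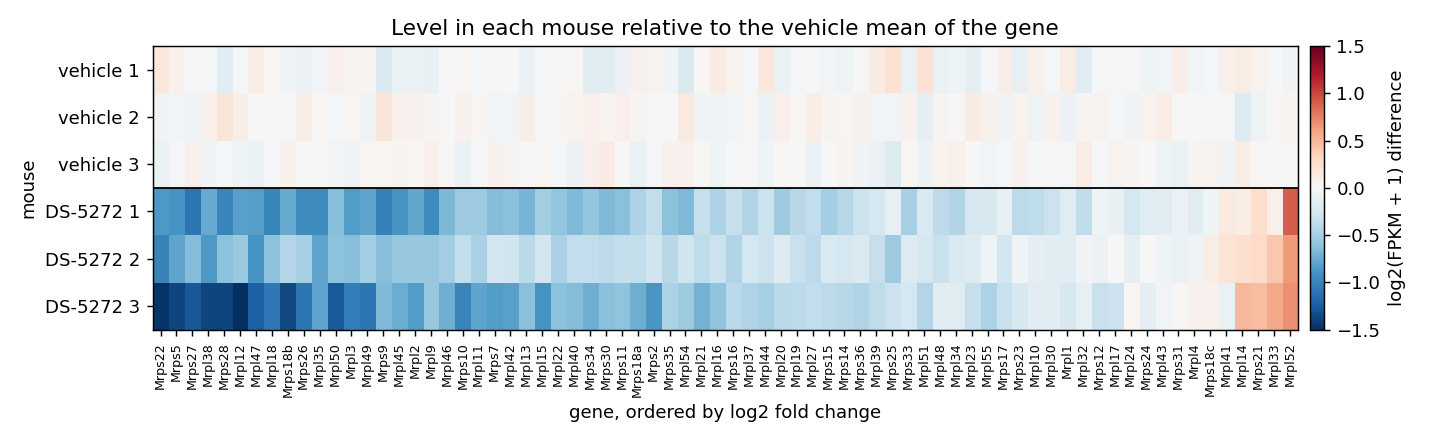
Each cell is the log2(FPKM + 1) of 1 gene (x axis) in 1 mouse (y axis) minus the mean of the gene over the 3 vehicle mice, from blue (lower) to red (higher). The vehicle rows are pale throughout, the treated rows are blue over most genes, and DS-5272 replicate 2 is the palest of the treated rows.

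The largest fall was that of Mrps22, a protein of the small subunit with no bacterial counterpart (ENSMUSG00000032459.9, GRCm38 chr9:98588730-98601660, minus strand). Its FPKM was 18.2, 15.5 and 15.0 in vehicle replicates 1, 2 and 3 and 8.49, 7.56 and 5.21 in DS-5272 replicates 1, 2 and 3. All treated mice were well below the vehicle mice, with a log2 fold change of −1.11 (SE 0.18, limma, adjusted p = 0.0049). Mrps5 (ENSMUSG00000027374.12, chr2:127587222-127606829, plus strand), the relative of bacterial S5 near the mRNA entry, was 30.9, 28.7 and 29.1 FPKM with vehicle and 15.6, 16.6 and 10.8 FPKM with DS-5272. Its groups were far apart, and its log2 fold change was −1.02 (SE 0.16, adjusted p = 0.0049). Mrps27 (ENSMUSG00000041632.7, chr13:99344786-99415562, plus strand), a small subunit protein of the pentatricopeptide repeat family, was 28.6, 28.0 and 30.6 FPKM against 13.2, 18.1 and 11.5 FPKM. Replicate 2 was the highest of the treated mice here and still far below the vehicle mice (log2 fold change −1.0, SE 0.16, adjusted p = 0.0053). Mrps28 (ENSMUSG00000040269.5, chr3:8802146-8923918, minus strand), another small subunit protein, was 40.9, 52.8 and 45.7 FPKM against 23.0, 29.8 and 17.2 FPKM (log2 fold change −0.99, SE 0.20, adjusted p = 0.0098).

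In the large subunit the leading falls were of similar size. Mrpl38 (ENSMUSG00000020775.13, chr11:116131817-116138868, minus strand), which lies in the central protuberance, was 16.9, 18.1 and 16.4 FPKM with vehicle and 9.70, 8.96 and 5.97 FPKM with DS-5272. The log2 fold change was −1.0 (SE 0.17, limma, adjusted p = 0.0059), with no overlap. Mrpl47 (ENSMUSG00000037531.8, chr3:32725397-32737605, minus strand), the relative of bacterial L29 at the tunnel exit, was 18.8, 17.3 and 16.1 FPKM against 9.33, 8.94 and 6.84 FPKM (log2 fold change −0.98, SE 0.14, adjusted p = 0.0035). The exons of Mrpl47 share 616 nt with Ndufb5 and 452 nt with Actl6a, both on the opposite strand and both also lower (log2 fold changes −0.44 and −1.04, SE 0.10 and 0.14, adjusted p = 0.016 and 0.0032), and whether strand was used in counting is not stated. The call on Ndufb5 was lost without vehicle replicate 2 (adjusted p = 0.073) and without vehicle replicate 3 (adjusted p = 0.069). Mrpl18 (ENSMUSG00000057388.9, chr17:12911349-12916345, minus strand), which binds the structural RNA or tRNA of the central protuberance, was 76.8, 75 and 73.5 FPKM against 37.7, 48.6 and 35.2 FPKM. Its log2 fold change was −0.89 (SE 0.13, adjusted p = 0.0043), and its exons share 141 nt with Tcp1, a chaperonin gene on the opposite strand that was lower as well (log2 fold change −1.07, SE 0.20, adjusted p = 0.0070).

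**Figure D3:**
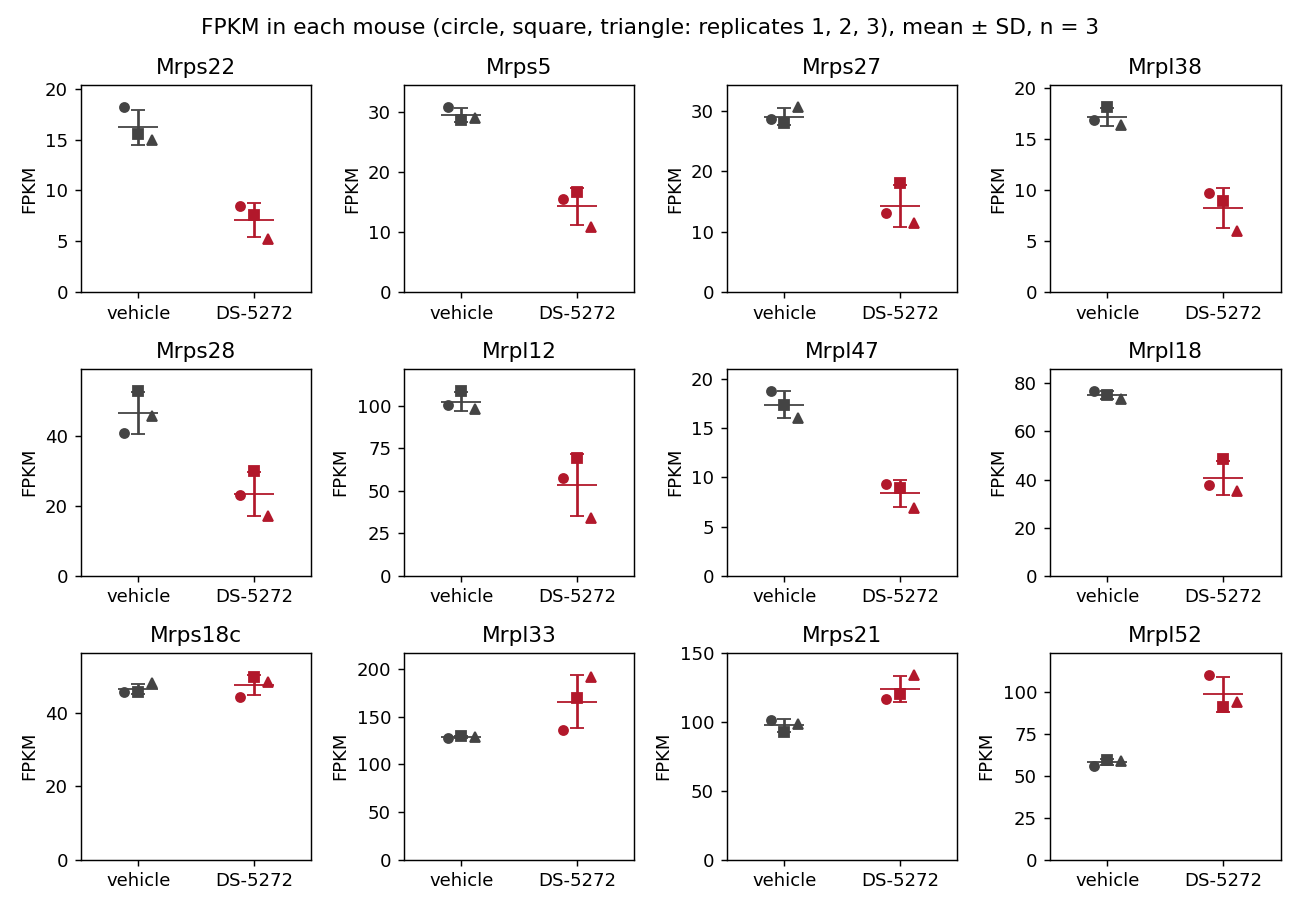
FPKM in each mouse (y axis, starting at 0) is drawn for 12 genes, with vehicle in grey and DS-5272 in red, a symbol for each replicate, a line for the mean and a bar for the SD, n = 3. The first 8 genes are the largest falls, with the groups apart in each, Mrps18c has overlapping groups, and Mrpl33, Mrps21 and Mrpl52 have every treated mouse above the vehicle mice.

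Only 2 genes rose. Mrpl52 (ENSMUSG00000010406.12, chr14:54426909-54429756, plus strand), a large subunit protein specific to mitochondria, was 55.8, 59.6 and 58.9 FPKM with vehicle and 110, 91.1 and 93.8 FPKM with DS-5272. Every treated mouse was at least 1.5 times as high as any vehicle mouse, and the log2 fold change was 0.74 (SE 0.11, limma, adjusted p = 0.0038). With all samples rescaled to a common total its log2 fold change was 0.48 and its adjusted p 0.051. Mrps21 (ENSMUSG00000054312.6, chr3:95862634-95871519, minus strand), the relative of bacterial S21, was 101, 92.5 and 98.4 FPKM with vehicle and 117, 120 and 134 FPKM with DS-5272. Its groups did not overlap, but the difference was smaller, with a log2 fold change of 0.34 (SE 0.10, adjusted p = 0.031). Mrps21 was not past the threshold when vehicle replicate 1, 2 or 3 was left out (adjusted p = 0.065, 0.13 and 0.0996) and without DS-5272 replicate 2 or 3 (0.051 and 0.052). Its rise was also lost with a common upper quartile, a common total or quantile normalization (adjusted p = 0.083, 0.59 and 0.70), and the lowest log2 fold change among all alternatives was 0.048. Mrpl33 (ENSMUSG00000106918.3, chr5:31596935-31664384, plus strand), the relative of bacterial L33 and the most abundant of the 72 with a mean of 147 FPKM, was 127, 130 and 128 FPKM with vehicle and 136, 170 and 192 FPKM with DS-5272. It was not past the threshold (log2 fold change 0.35, SE 0.14, adjusted p = 0.079), and with the replicate number as a block the adjusted p was 0.045. Without DS-5272 replicate 1, its lowest treated mouse, the adjusted p was 0.015.

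Because the largest fall and the largest rise fell on genes of the same machine, their promoters are shown. They are the 250 bases before the RefSeq start site on GRCm38.p6, chr9:98601680-98601929 on the minus strand for Mrps22 and chr14:54426659-54426908 on the plus strand for Mrpl52, and neither stretch touches an annotated exon. Capitals mark CCGGAAG or its reverse complement CTTCCGG, the core bound by ETS factors such as GABP, and in Mrps22 also GGGGCGGG, a GC box bound by SP1.
Mrps22: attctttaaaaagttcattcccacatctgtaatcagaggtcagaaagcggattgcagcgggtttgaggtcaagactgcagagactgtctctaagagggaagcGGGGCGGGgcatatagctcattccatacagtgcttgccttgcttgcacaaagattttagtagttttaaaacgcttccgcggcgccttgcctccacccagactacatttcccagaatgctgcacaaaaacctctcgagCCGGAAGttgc
Mrpl52: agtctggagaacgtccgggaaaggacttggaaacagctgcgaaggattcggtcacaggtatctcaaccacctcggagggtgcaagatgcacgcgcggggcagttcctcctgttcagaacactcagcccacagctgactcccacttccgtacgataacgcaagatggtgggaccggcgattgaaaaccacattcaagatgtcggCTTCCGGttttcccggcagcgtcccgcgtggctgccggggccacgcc
The ETS core is present in both, 1 from the gene that fell furthest and 1 from the gene that rose furthest.

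Promoter entries of 300 bases were matched for 63 of the 72 genes, and motifs were searched on both strands. The ETS core was in 23 of the 63 (36.5%), in 21.6% of the 7456 tested genes with an entry and in 9.93% of all 27025 genes with an entry. AAGATGGC, bound by YY1, was in 11 (17.5%), against 5.69% of tested genes and 3.19% of all genes with an entry. GCATGCGC, bound by NRF1, a regulator of nuclear genes for mitochondria, was in 8 (12.7%), against 6.50% and 3.05%. The GC box was in 19 (30.2%), against 34.9% and 18.4%, and the E-box CACGTG, bound by MYC with MAX among others, was in 4 (6.35%), against 12.4% and 8.09%. The ETS core was in 11 of the 38 genes that fell (28.9%) and in 12 of the other 25 (48%), while AAGATGGC was in 8 of the 38 (21.1%) and 3 of the 25 (12%). These shares are descriptions of the letters in these windows. Matches of the GC box may overlap other GC-rich motifs.

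Both subunits contributed. In the large subunit 29 of 46 tested genes fell and 1 rose, with a median log2 fold change of −0.43, and in the small subunit 16 of 25 fell and 1 rose, with a median of −0.50. Mrps36, now known as a component of the 2-oxoglutarate dehydrogenase complex and counted in neither subunit, also fell, from 35.9, 37.8 and 34.7 FPKM to 28.6, 30.9 and 26.2 FPKM (log2 fold change −0.33, SE 0.099, limma, adjusted p = 0.032). That call was lost in 5 of the 6 fits without 1 mouse (adjusted p from 0.053 to 0.13), all except the fit without DS-5272 replicate 2. Of the genes with a bacterial counterpart 28 of 44 fell and 1 rose (median −0.43), and of those specific to mitochondria 17 of 28 fell and 1 rose (median −0.44), the latter with 1 gene listed under another name, Mrp63. Without vehicle replicate 1, 2 or 3, 19, 15 and 18 of the large subunit genes were lower, and 10, 8 and 8 of the small subunit genes. In the same fits 15, 13 and 16 of the genes with a bacterial counterpart were lower, and 10 of those specific to mitochondria without vehicle replicate 2 or 3. Without vehicle replicate 1 only Mrpl39, Mrpl42 and Mrpl44 lost the call among those specific to mitochondria.

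Within the large subunit, the stalk recruits translation factors. Its protein Mrpl12 (ENSMUSG00000039640.7, chr11:120484613-120489065, plus strand), the relative of bacterial L7/L12, was 100, 109 and 97.9 FPKM with vehicle and 57.5, 69.0 and 33.7 FPKM with DS-5272. The treated mice were all below the vehicle mice but wide apart, with a log2 fold change of −0.98 (SE 0.25, limma, adjusted p = 0.019). Without vehicle replicate 1, 2 or 3 the adjusted p of Mrpl12 was 0.052, 0.066 and 0.0502. Mrpl11 (ENSMUSG00000024902.5, chr19:4962147-4966999, plus strand), at the base of the stalk, was 8.90, 9.24 and 8.90 FPKM against 5.85, 6.15 and 4.80 FPKM (log2 fold change −0.61, SE 0.11, adjusted p = 0.0077). Mrpl10 (ENSMUSG00000001445.10, chr11:97041560-97049213, plus strand), which anchors Mrpl12, was 36.4, 32.8 and 34.7 FPKM against 26.4, 31.4 and 31.0 FPKM. Its groups did not overlap, yet it was not past the threshold (log2 fold change −0.22, SE 0.11, adjusted p = 0.12).

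In the central protuberance, which faces the small subunit, 5 of 6 genes fell, with a median log2 fold change of −0.60. The other one, Mrpl48, was 50.7, 56.0 and 56.2 FPKM against 41.0, 42.9 and 48.6 FPKM (log2 fold change −0.29, SE 0.10, limma, adjusted p = 0.055), and its adjusted p was 0.039 with the replicate number as a block. At the tunnel exit, where the new chain leaves the ribosome, 3 of 6 genes fell, with a median of −0.42. Under a common upper quartile, a common total or quantile normalization this count was 5, where 28.56%, 31.94% and 28.17% of all genes were lower.

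The S18 proteins are 3 paralogs of 1 bacterial protein that take different places in the mitochondrial ribosome, and 2 of them fell. Mrps18b (ENSMUSG00000024436.16, chr17:35910379-35916389, minus strand), a small subunit protein, was 48.5, 50.1 and 52.5 FPKM with vehicle and 29.5, 36.7 and 19.1 FPKM with DS-5272 (log2 fold change −0.85, SE 0.22, limma, adjusted p = 0.021). Mrps18a (ENSMUSG00000023967.9, chr17:46110986-46128910, plus strand), which sits in the large subunit, was 37.1, 36.7 and 33.0 FPKM against 25.5, 27.3 and 20.9 FPKM (log2 fold change −0.52, SE 0.12, adjusted p = 0.015). Mrps18c (ENSMUSG00000016833.14, chr5:100798627-100804471, plus strand), of the small subunit, was 45.8, 45.7 and 48.2 FPKM against 44.5, 49.9 and 48.6 FPKM. The values of Mrps18c overlapped between the groups (log2 fold change 0.03, SE 0.091, adjusted p = 0.80), and the difference between the paralogs was not tested. The exons of Mrps18b share 638 nt with Gm16279 on the opposite strand, which was not past the threshold (log2 fold change 0.24, SE 0.38, limma, adjusted p = 0.62). The adjusted p of Mrps18b was 0.054, 0.065 and 0.065 without vehicle replicate 1, 2 or 3, and that of Mrps18a was 0.052 and 0.061 without vehicle replicate 1 or 2.

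Genes of high and of low level were among those that fell. The log2 fold change of the 72 genes and their vehicle FPKM had a Pearson's r of 0.08 and a Spearman's rho of 0.07 across genes, which share the 6 libraries and are not independent replicates. The vehicle means ran from 7.93 to 128.4 FPKM with a median of 34.5. Among the most abundant genes, Mrpl33, Mrps21, Mrpl23, Mrpl54 and Mrpl52, with means of 147, 110, 83.7, 81.2 and 78.2 FPKM over the 6 samples, only Mrpl54 was called lower. Mrpl54 (ENSMUSG00000034932.4, chr10:81264713-81266934, minus strand), a large subunit protein specific to mitochondria, was 81.6, 105 and 98.9 FPKM against 59.4, 76.9 and 65.3 FPKM (log2 fold change −0.50, SE 0.14, limma, adjusted p = 0.029). Its adjusted p was 0.11 and 0.096 without vehicle replicate 2 or 3, and 0.063 and 0.064 without DS-5272 replicate 1 or 3. Mrpl23 (ENSMUSG00000037772.13, chr7:142532686-142540747, plus strand), at the tunnel exit, was 83.3, 99.9 and 91.6 FPKM against 76.3, 79.6 and 71.7 FPKM and was not past the threshold (log2 fold change −0.27, SE 0.11, adjusted p = 0.078).

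The least abundant of the genes tested were Mrps17, Mrpl11 and Mrpl1, with means of 7.24, 7.31 and 7.64 FPKM. Mrps17 (ENSMUSG00000034211.14, chr5:129715497-129722556, plus strand), the relative of bacterial S17 and the gene just inside the 1 FPKM filter, was 8.55, 7.50 and 7.74 FPKM with vehicle and 7.21, 6.34 and 6.10 FPKM with DS-5272. Mrpl1 (ENSMUSG00000029486.13, chr5:96209493-96266727, plus strand), of the flexible stalk opposite to Mrpl12, was 8.97, 7.63 and 8.05 FPKM against 7.12, 7.24 and 6.82 FPKM. In both the treated mice were the lower ones without overlap, and neither was past the threshold (limma, adjusted p = 0.11 and 0.16). The gene just outside the filter was Mrpl36 (ENSMUSG00000021607.9, chr13:73328513-73332178, plus strand), with 0.231, 0.321 and 0.488 FPKM against 0.154, 0.310 and 0.107 FPKM, and it was not tested.

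The genes with the shortest transcripts did not fall. Mrpl52, Mrpl33 and Mrps21, with annotated transcripts of 418, 478 and 488 nt, were the only 3 tested genes under 500 nt, and all had positive values. From 500 to under 750 nt 4 of 8 genes fell, from 750 to under 1000 nt 6 of 11, from 1000 to under 1500 nt 16 of 21, from 1500 to under 3000 nt 10 of 12, and at 3000 nt or more 10 of 17. Over all genes tested with a length, the median log2 fold change was 0.03 under 500 nt, where 7 of 59 fell and 15 rose, and 0.09 at 3000 nt or more. In the ranges from 500 nt upward, in the same order, 22.54%, 23.68%, 27.83%, 25.25% and 20.24% of all these genes were lower. The correlation of log2 fold change with log2 transcript length was −0.32 (Pearson's r) and −0.27 (Spearman's rho) across the 72 genes, and 0.01 and 0.06 across 9003 genes. It was −0.35 and −0.31 across 74 nuclear subunits of oxidative phosphorylation, and −0.08 and −0.22 across 79 cytosolic ribosomal protein genes. These values are a description across genes of the same libraries.

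**Figure D4:**
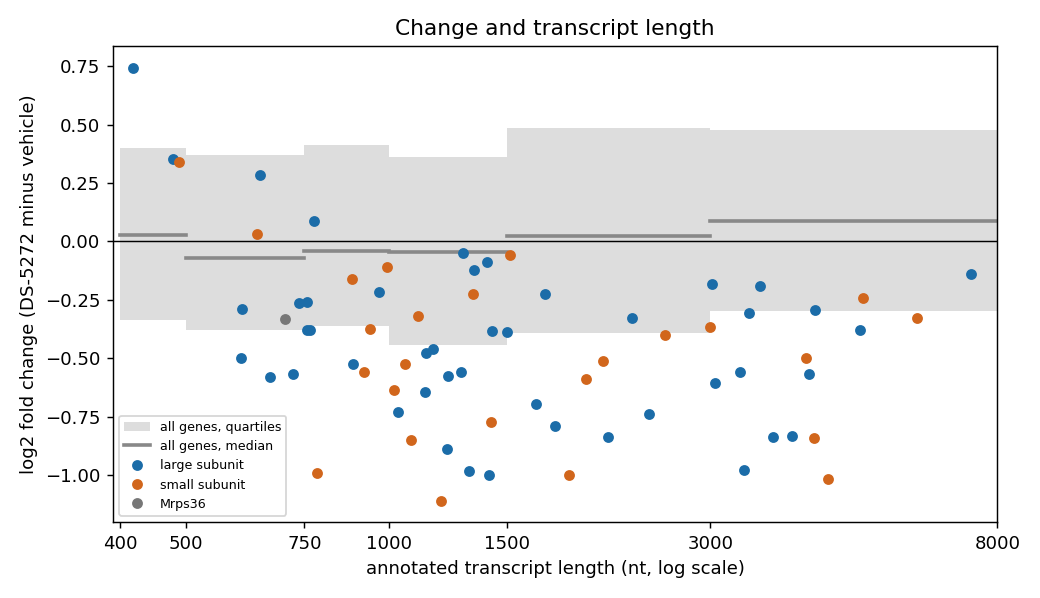
The log2 fold change (y axis) of each of the 72 genes is plotted against its annotated transcript length (x axis, log scale), with the median and quartiles of all genes tested in each length range in grey. The 3 genes under 500 nt are above 0, and all 36 genes over the median length of 1324 nt are below 0.

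Neighbouring genes were compared because many of these genes share a promoter region with a gene on the other strand. Of the 72 genes, 17 (23.6%) had a head-to-head start site of another protein-coding gene within 1000 nt, against 11.2% of the 9003 tested genes with a position. The genes of such a pair did not always move together. Mrps27 fell while Ptcd2, 81 nt away, was 27.9 FPKM with vehicle and 26.9 FPKM with DS-5272 (log2 fold change −0.06, SE 0.11, limma, adjusted p = 0.68), and Mrps18b fell while Ppp1r10, 45 nt away, was not past the threshold (log2 fold change −0.07, SE 0.13, adjusted p = 0.68). Mrpl2 fell (log2 fold change −0.73, SE 0.11, adjusted p = 0.0041) and Klc4, 207 nt away, rose (log2 fold change 0.61, SE 0.19, adjusted p = 0.038). The call on Klc4 was lost without any 1 mouse other than DS-5272 replicate 1 (adjusted p = 0.101, 0.113 and 0.0695 without vehicle replicate 1, 2 or 3, and 0.0896 and 0.0684 without DS-5272 replicate 2 or 3). Mrps18c did not pass the threshold and Helq, 29 nt away, fell (log2 fold change −0.61, SE 0.12, adjusted p = 0.0092). Mrpl40 and Hira, 175 nt apart, both fell (log2 fold changes −0.56 and −0.63). So did Mrpl37 and Cyb5rl, 120 nt apart (log2 fold changes −0.39 and −0.43, SE 0.093 and 0.13, limma, adjusted p = 0.016 and 0.036). The call on Mrpl37 was lost without vehicle replicate 2 or 3. These pairs were picked after their values were seen.

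Exons of 29 of the 72 genes overlap those of another gene, 25 of them on the opposite strand and 6 on the same strand, some on both. Fragments of the neighbour may enter their values. A use of strand in the counting is not stated, and it would not separate overlaps on the same strand. Those include Mrpl33 (261 nt shared with Gm43809) and Mrps18c (250 nt shared with Gm43511). Overlaps on the opposite strand include Mrps27 (506 nt shared with 6430562O15Rik) and Mrpl12 (200 nt shared with Gm16755). Among the 43 genes without an overlap 27 fell and 2 rose, with a median log2 fold change of −0.39. Among the 29 with an overlap 19 fell and none rose, with a median of −0.53. The names Mrps6, Mrpl28 and Mrpl53 occur only in entries joined with another gene and were left out.

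Another list held 7 tested genes that are, or once were, counted among the mitochondrial ribosomal proteins but carry other names. Of these 3 fell and 1 rose, and with the replicate number as a block 5 fell, where 24.9% of all genes were lower. Without DS-5272 replicate 2 it was also 5, where 20.23% of all genes were lower. With a common upper quartile, a common total or quantile normalization it was 6, where 28.56%, 31.94% and 28.17% were lower. Gadd45gip1, a protein of the large subunit, was 17.5, 16.1 and 16.4 FPKM with vehicle and 9.65, 11.6 and 6.78 FPKM with DS-5272 (log2 fold change −0.80, SE 0.18, limma, adjusted p = 0.013), and Ptcd3, a pentatricopeptide repeat protein of the small subunit, was 23.5, 22.1 and 23.2 FPKM against 14.6, 17.5 and 11.9 FPKM (log2 fold change −0.62, SE 0.14, adjusted p = 0.014). The third was Dap3, a GTP-binding protein of the small subunit (log2 fold change −0.42, SE 0.095, adjusted p = 0.013), whose adjusted p was 0.056 and 0.064 without vehicle replicate 2 or 3. The one that rose was Lactb, a filament-forming mitochondrial protease once listed among the ribosomal proteins, from 13.1, 13.3 and 13 FPKM to 18.5, 21.9 and 26.3 FPKM (log2 fold change 0.71, SE 0.13, adjusted p = 0.0078).

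Genes that act around the mitochondrial ribosome were mostly lower or not past the threshold. Of 25 tested assembly factors 10 fell and none rose, with a median log2 fold change of −0.30, where 22% of all genes tested were lower. Without vehicle replicate 1 or 2 it was 6 and 5 that fell, where 14.95% and 12.48% of all genes were lower. Wbscr16 (Rcc1l), which acts in the assembly of the large subunit, was 6.71, 6.39 and 6.08 FPKM with vehicle and 2.68, 2.82 and 1.69 FPKM with DS-5272 (log2 fold change −1.14, SE 0.16, limma, adjusted p = 0.0037). Rnmtl1 (Mrm3), a methyltransferase of the large ribosomal RNA, fell as well (log2 fold change −0.94, SE 0.21, adjusted p = 0.012). Of 16 mitochondrial translation factors 8 fell and none rose, with a median of −0.43. With a common total 13 fell, where 31.94% of all genes were lower. The elongation factor Tsfm was 18.6, 18.6 and 19.0 FPKM against 9.20, 10.5 and 6.68 FPKM (log2 fold change −1.03, SE 0.16, adjusted p = 0.0043). Guf1, a translational GTPase, was 8.83, 10.2 and 9.46 FPKM against 4.24, 5.09 and 4.65 FPKM (log2 fold change −0.89, SE 0.11, adjusted p = 0.0026).

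Of 14 tested genes of mitochondrial transcription and RNA processing 7 fell and none rose, where 22% of all genes tested were lower. Their median log2 fold change was −0.45. The largest falls were those of Mterfd3 (Mterf2), a protein of the mitochondrial termination factor family (log2 fold change −0.75, SE 0.15, limma, adjusted p = 0.010), and Polrmt, the mitochondrial RNA polymerase (log2 fold change −0.66, SE 0.16, adjusted p = 0.014, and 0.051 without vehicle replicate 1). The mRNAs encoded in mitochondrial DNA were not analysed here. Of 8 tested regulators of nuclear genes for mitochondria 4 fell and 2 rose. Myc, a transcription factor that drives ribosome production, was 49.5, 45.9 and 50.8 FPKM with vehicle and 30.2, 26.1 and 10.3 FPKM with DS-5272 (log2 fold change −1.23, SE 0.36, adjusted p = 0.031). Nrf1 was 21.1, 20.5 and 21.7 FPKM against 12, 16.9 and 15.8 FPKM (log2 fold change −0.49, SE 0.14, adjusted p = 0.026). The others that fell were Gabpa and Gabpb1, the subunits of GABP (log2 fold changes −0.34 and −0.47, SE 0.090 and 0.15, adjusted p = 0.023 and 0.044). Without vehicle replicate 1, 2 or 3 the adjusted p of Myc was 0.080, 0.078 and 0.082, that of Nrf1 0.071, 0.074 and 0.087, and the number of these regulators that fell 0, 0 and 1. Without the filter on low values it was 2, and the adjusted p of Myc was 0.063. Those that rose were Esrra (log2 fold change 0.78, SE 0.12, adjusted p = 0.0040) and Max, the partner of MYC (0.60, SE 0.18, adjusted p = 0.034), and Max was not past the threshold without vehicle replicate 1, 2 or 3 or DS-5272 replicate 2 (adjusted p = 0.104, 0.085, 0.068 and 0.067).

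The proteins of the cytosolic ribosome gave other counts in the main fit. Of 80 tested genes 2 fell and 1 rose, with a median log2 fold change of −0.10. With the replicate number as a block 21 fell and 5 rose, where 24.9% of all genes were lower and 30.25% higher. With vehicle the list was lowest in replicate 1, at −0.19 on the log2 scale relative to the vehicle mean, against 0.09 and 0.10 in replicates 2 and 3. With DS-5272 it was −0.30, 0.003 and 0.11 in replicates 1, 2 and 3, so the groups overlapped. On the same scale, the mean of the mitochondrial ribosomal protein genes was −0.01, 0.02 and −0.01 with vehicle and −0.47, −0.32 and −0.54 with DS-5272, without overlap. The difference between the lists was not tested. The cytosolic genes that fell were Rps2 (log2 fold change −0.56, SE 0.16, limma, adjusted p = 0.029) and Rpl14 (−0.48, SE 0.15, adjusted p = 0.033), and the one that rose was Rpl3l, from 0.463, 1.10 and 0.576 FPKM to 3.84, 6.63 and 5.74 FPKM. The count of cytosolic genes that fell rested on the scaling and on single mice: it was 26 with a common upper quartile, 61 with a common total and 63 with quantile normalization (where 28.56%, 31.94% and 28.17% of all genes were lower), 0 without vehicle replicate 2 or 3 or DS-5272 replicate 3, and 1 without DS-5272 replicate 1.

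In the main fit, nuclear subunits of the oxidative phosphorylation complexes lay between these lists in their share of lower genes. The mitochondrial ribosome makes partners of these subunits. Of 74 tested genes 23 fell and 2 rose, with a median log2 fold change of −0.24. With the replicate number as a block 28 fell and 5 rose, where 24.9% of all genes were lower and 30.25% higher. The largest falls were in the catalytic core of ATP synthase. Atp5a1 was 309, 348 and 354 FPKM with vehicle and 171, 214 and 177 FPKM with DS-5272 (log2 fold change −0.85, SE 0.13, limma, adjusted p = 0.0043), and Atp5b was 453, 479 and 489 FPKM against 292, 342 and 276 FPKM (log2 fold change −0.65, SE 0.12, adjusted p = 0.0076). The rises were in Ndufa6 and Ndufa8, subunits of complex I (log2 fold changes 0.41 and 0.31, SE 0.12 and 0.10, adjusted p = 0.026 and 0.044). Both rises were lost without vehicle replicate 1, 2 or 3 or DS-5272 replicate 3, and that of Ndufa8 also without DS-5272 replicate 2 (adjusted p of Ndufa6 from 0.051 to 0.085 and of Ndufa8 from 0.082 to 0.14 in these fits). The number of lower genes was 14, 8 and 8 without vehicle replicate 1, 2 or 3, where 14.95%, 12.48% and 13.41% of all genes were lower. It was 47, 58 and 59 with a common upper quartile, a common total or quantile normalization, where 28.56%, 31.94% and 28.17% of all genes were lower. Under these scalings 55, 57 and 56 of the 72 mitochondrial ribosomal protein genes were lower. With a common total or quantile normalization, most genes of each of these lists, the cytosolic one included, were lower, in similar shares.

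**Figure D5:**
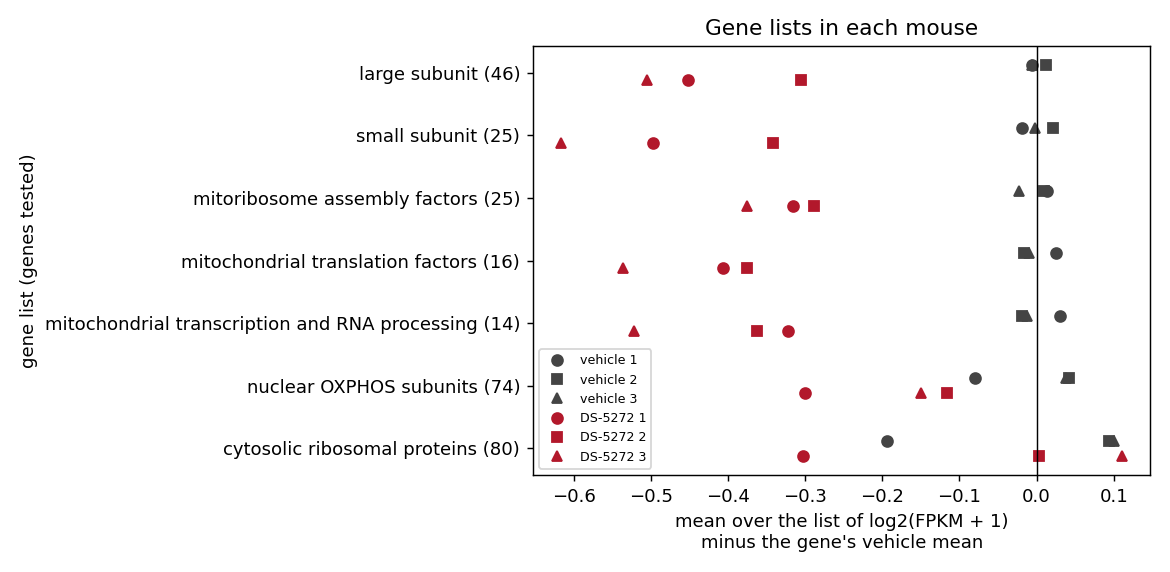
For each gene list (y axis, with the number of genes tested), the mean of log2(FPKM + 1) minus the vehicle mean of each gene (x axis) is drawn for the 3 vehicle mice (grey) and the 3 DS-5272 mice (red). The treated mice are apart from the vehicle mice in the large subunit, the small subunit and the other mitochondrial lists, and they overlap with them in the cytosolic ribosomal proteins.

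Markers of several other cell types and of myeloid maturation had higher summed levels in the treated mice. The summed FPKM of 10 mature neutrophil genes was 156 to 1660 with vehicle and 3195 to 15390 with DS-5272, and 8 of the 10 rose, or 10 with the replicate number as a block. The sum of 8 marrow macrophage markers was 63.2 to 116 FPKM with vehicle and 188 to 427 FPKM with DS-5272, and that of 6 erythroid markers with an entry was 2.47 to 4.63 and 12.7 to 146 FPKM, both highest in DS-5272 replicate 1. Without that mouse 42 of the 72 mitochondrial ribosomal protein genes were lower and 3 were higher. The T and NK cell markers summed to 0.428 to 0.710 FPKM with vehicle and 0.940 to 1.55 FPKM with DS-5272. None of these 6 genes reached a mean of 1 FPKM, so none was tested. The mean FPKM of Klrb1c and Cd3g was lower with DS-5272 (0.161 and 0.094, against 0.181 and 0.127 with vehicle). That of Cd3e, Cd3d, Ncr1 and Klrk1 was higher. For stroma and endothelium the sums were 1.15 to 2.51 FPKM and 3.13 to 5.89 FPKM, with 5 of the 7 genes under 0.1 FPKM in every sample. The part of these cells in the fall of the mitochondrial ribosomal protein genes was not tested. Of the leukemia cell genes with an entry of their own, Meis1, Ptprc, Itgam and Cd34 were above 65 FPKM in every sample. Itgam, an integrin of myeloid cells, rose from between 140 and 190 FPKM to between 530 and 1087 FPKM (log2 fold change 2.1, SE 0.28, limma, adjusted p = 0.0031), and Ptprc, the leukocyte antigen CD45, rose from between 66.0 and 84.5 FPKM to between 141 and 214 FPKM (log2 fold change 1.18, SE 0.18, adjusted p = 0.0041). Kit fell from between 30.5 and 45.0 FPKM to between 4.94 and 12.1 FPKM, and Mpo from between 140 and 325 FPKM to between 3.25 and 12.2 FPKM.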

How the data were processed

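RNA-Seq was performed on leukemia cells of 6 mice, grouped by the treatment in the sample labels. The authors prepared strand-specific libraries, sequenced 100 nt from both ends, trimmed the reads with cutadapt 1.8.1, aligned them to GRCm38 transcripts with TopHat 2.1.1 and deposited FPKM values from Cufflinks 2.2.1. These values are not counts, so no count model was used. Depth is not given and was estimated from the steps of low FPKM values. Lines sharing a symbol were summed. Lines naming several genes stayed in the fit as entries of their own and were not assigned to a gene.

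Genes averaging 1 FPKM or more were compared on log2(FPKM + 1) with limma 3.58.1 in R 4.3.3 (lmFit, eBayes with trend, two-sided, n = 3 per group). Fold changes on this scale understate the change of low genes. An exact permutation test of 3 mice against 3 cannot go below p = 0.1. The fit was tested on simulated data. Tables and figures were made with Python 3.11.15, pandas 2.3.3, numpy 2.4.6 and matplotlib 3.10.9. Positions come from GENCODE M21 and promoters from RefSeq, both on GRCm38.

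The rule for the genes uses names only, but this gene family and the lists were picked with earlier results of these data known. One marker list is not reported here. Named were the 8 largest falls and the rises past the threshold, the 5 highest and 3 lowest by level, the stalk and S18 proteins, the genes just inside and outside the filter, and the 2 largest falls and rises of every other list. Mrpl2, Mrpl37, Mrpl39, Mrpl40, Mrpl42, Mrpl44, Mrpl48, Mrpl34, Mrps33, Mrps36, Dap3, Gabpa, Gabpb1, the neighbouring genes and the single markers were named after their values were seen. Separate mice are labelled, with numbers 1 to 3 in both groups. Over genes, the deviations of same-numbered samples from their group means had correlations of 0.66, 0.21 and 0.43, and those of other pairs −0.58 to 0.34. The numbers may pair the mice, but no shared batch or day is named. Vehicle replicate 2 correlated more with DS-5272 replicate 3 (0.34) than with DS-5272 replicate 2 (0.21). The main fit was unpaired, and the replicate number as a block was an alternative. Alternatives were another pseudocount, filter, scaling, replicate block, eBayes trend, line choice, joined entries and leaving out each mouse.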

Additional observations from a re-analysis of the deposited data

How the results depend on the processing

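The number of mitochondrial ribosomal protein genes that were lower stayed within 1.5 times of 46 under every alternative that kept all 6 mice (45 to 57). With each mouse left out in turn it ran from 23 to 45, the number of higher genes from 1 to 3 and the median log2 fold change from −0.50 to −0.38. The number of higher genes was 1 with a common upper quartile, 0 with a common total (TPM) and 1 with quantile normalization, where the median log2 fold change was −0.57, −0.69 and −0.57. These scalings moved the median of all genes tested by −0.12, −0.24 and −0.08, and the distance of the 72 genes from that median was −0.48, −0.49 and −0.53, against −0.47 as reported. Over all genes, 52.4% of the calls were higher as reported, 41.3% with a common upper quartile and 32.5% with a common total. With the replicate number as a block, 49 genes were lower and 3 higher, where 24.9% of all genes were lower and 30.25% higher. The additional ones were Mrps33, Mrpl48, Mrpl34 and Mrpl33, and the block changed no other call among the 72. With the block, 9 in place of 8 translation factors, 8 in place of 7 genes of mitochondrial transcription and RNA processing and 5 in place of 4 regulators were lower. Of the 46 genes called lower, 22 were called in each of 16 alternative fits and 24 lost the call under at least 1, 23 of these only in fits without 1 mouse, and all 46 had a negative value throughout. The estimated counting error of a tested value was at most 8.45%, in Mrps22.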
